A study of Arabidopsis thaliana with 24 samples.

Results

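Roots were compared with shoots within pxy-5, a mutant of the receptor kinase gene PXY, in 7-day-old Arabidopsis thaliana seedlings. The comparison used 7 of the 24 RNA-seq libraries of a study on vascular proliferation, 3 from pxy-5 roots (replicates 1, 3 and 4) and 4 from pxy-5 shoots (replicates 1 to 4). The library labelled pxy root 2 was left out because its profile was that of a shoot. The other groups were Col-0 wild type (WT) and 41-OX. WT was used here to set the same organ difference beside the mutant's. 41-OX entered 1 alternative fit, the check of the library labelled pxy root 2 and the scaling of the printed levels. Beyond the tissue names root and shoot, the labels do not say which parts of the seedling the shoot sample held. A single pxy allele was sampled, so what belongs to the allele and what to the line cannot be told apart. Depth was 7897789 to 9256266 counts in the 3 roots and 7291630 to 8638785 in the 4 shoots.

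PXY (also called TDR) is a receptor kinase of the procambium and cambium, the dividing cell layers between phloem and xylem. It binds the peptide TDIF, which the genes CLE41 and CLE44 encode and which is made largely in the phloem. CLE42, a related gene, is counted here with the ligand genes. Bound receptor keeps cambial cells dividing, through the homeobox genes WOX4 and WOX14, and holds back xylem differentiation, through the GSK3-type kinases BIN2, BIL1 and BIL2 and the factor BES1. Roots and shoots carry this vascular tissue in different surroundings: roots have root hairs, an endodermis with a Casparian strip and a capped meristem, and shoots have photosynthetic mesophyll, stomata and a waxy cuticle.

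The labels were checked first against gene lists that mark those surroundings. The 35 nuclear genes of the photosystems and their antenna took 0.0604% to 0.0931% of counts in the 3 pxy roots and 3.76% to 4.68% in the 4 pxy shoots. The 21 root hair genes took 0.202% to 0.243% of counts in the roots and 0.00719% to 0.0125% in the shoots. Both lists separated the organs without overlap. The library labelled pxy root 2 stood near the shoots, at 4.18% for the photosystem list and, above the range of the shoots, 0.0203% for the root hair list. Across 20553 genes its log2 levels had r = 0.974 to 0.981 with the 4 pxy shoots and r = 0.623 to 0.63 with the 3 pxy roots.

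That library also went against its genotype label at PXY and AT5G35935, genes chosen after their values were seen. PXY stood at 10.2 CPM (counts scaled to library size with TMM factors) in it, against 35.1 to 41.7 in the 4 pxy shoots and 8.97 to 11.3 in the 3 WT shoots used. The pseudogene AT5G35935 stood at 1.16 CPM in it, against 29.1 to 39.9 in the 3 pxy roots, 19 to 22.3 in the pxy shoots, 1.14 to 1.71 in the 4 WT roots and 0.57 to 0.893 in the WT shoots. CLE41 was at 14.7 CPM in it, at 9.99 to 14.1 in the pxy shoots and at 15.2 to 21.6 in the WT shoots. It was at 27 to 29.2 CPM in the 4 41-OX shoots. CLE41 thus does not separate the pxy label from WT for this library. Which sample the library came from is not shown by these values, and it enters no comparison below.

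**Figure D1:**
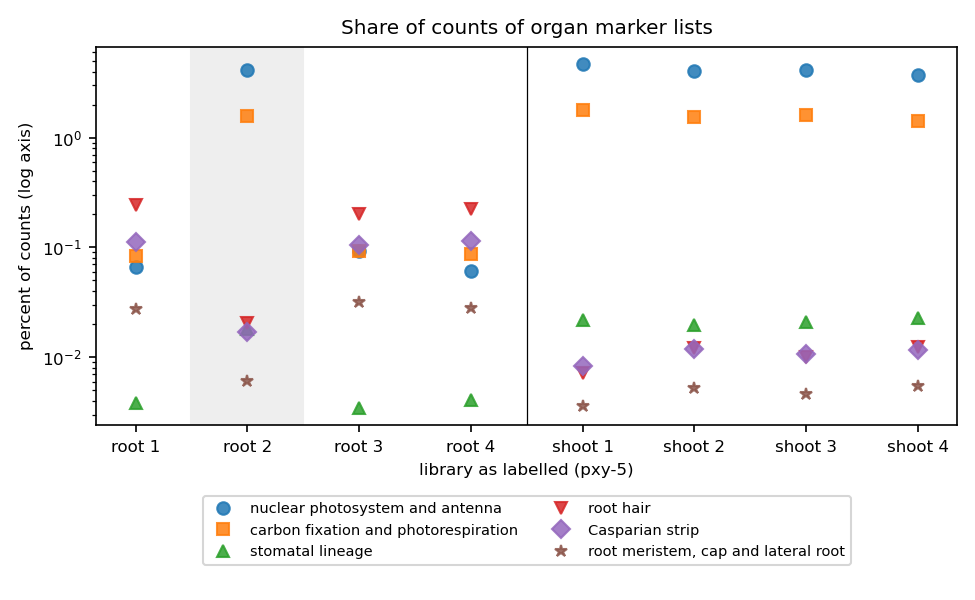
Percent of each pxy library's counts (log axis) taken by 6 marker lists, with the library labelled pxy root 2 shaded. Roots 1, 3 and 4 are high for root hair, Casparian strip and root meristem genes and low for photosystem, carbon fixation and stomatal genes. Root 2 lies nearer the 4 shoots than the roots for each list, for example 4.18% beside 3.76% to 4.68% for the photosystem list. For root hair, Casparian strip, root meristem and stomatal genes it lies outside the range of the shoots, on the side of the roots.

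Of the 3 roots kept, replicate 3 stood apart from the other two. A total of 904 genes with a mean of at least 2 CPM lay 2-fold or more from the mean of the other two roots in replicate 3, against 63 in replicate 1 and 192 in replicate 4. The differences moved with gene length: the median log2 deviation of replicate 3 was 0.31 in the shortest 4630 genes and −0.20 in the longest 4621. The phloem list was lower in it by a median of 0.61 and the lignin list by a median of 0.56 on the log2 scale, while the photosystem list was higher by 0.65. The part of RNA quality or of tissue in this was not tested, and the main results that change without this replicate are named beside them.

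The organ difference covered most of the transcriptome. Of 20553 genes tested, 15540 (75.6%) differed at an adjusted p under 0.05 in edgeR's quasi-likelihood test, 7845 (38.2%) of them higher in the root and 7695 (37.4%) higher in the shoot. With the further condition of a 2-fold difference, 9447 genes (46%) were called. Of these, 4685 (22.8%) were higher in the root and 4762 (23.2%) for the shoot. The wide differences lay more often on the shoot side: 907 genes were called at 32-fold or more toward the shoot and 445 toward the root. The values of roots and shoots did not overlap for 15310 genes (74.5%). In whole organs, fewer cells of a type and less RNA per cell cannot be told apart.

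The promoters of 4 genes are shown so that their organ levels can be read beside the sequence, a pair from genes high in the shoot and a pair from root hair genes. Each is the 250 bases before the gene's start in the RefSeq annotation of TAIR10.1, printed in the direction of transcription. All 4 were picked, by width of organ difference, among list members that held a searched motif in this stretch and no other gene. That these sequences hold motifs was therefore fixed by the choice. PSBQ2 (chr4:2673244-2673493, minus strand) encodes a subunit of the oxygen-evolving complex of photosystem II. RBCS2B (chr5:15382072-15382321, minus strand) encodes a small subunit of Rubisco. LRX1 (chr1:4069742-4069991, plus strand) encodes a leucine-rich repeat extensin of the root hair wall. EXPA7 (chr1:4276255-4276504, plus strand) encodes an expansin of root hairs. Capitals mark the G-box CACGTG and the I-box GATAAG in the first pair and the root hair element in the second, on either strand.
PSBQ2: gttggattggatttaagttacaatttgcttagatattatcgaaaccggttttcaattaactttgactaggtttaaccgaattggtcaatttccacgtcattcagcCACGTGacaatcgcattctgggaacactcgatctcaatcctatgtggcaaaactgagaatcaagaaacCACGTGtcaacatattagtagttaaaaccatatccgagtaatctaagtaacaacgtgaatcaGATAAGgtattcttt
RBCS2B: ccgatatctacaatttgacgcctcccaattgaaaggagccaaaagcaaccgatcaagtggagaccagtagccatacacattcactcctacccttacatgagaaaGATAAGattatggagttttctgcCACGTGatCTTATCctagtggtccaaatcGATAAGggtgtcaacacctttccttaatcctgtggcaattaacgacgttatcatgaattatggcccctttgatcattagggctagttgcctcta
LRX1: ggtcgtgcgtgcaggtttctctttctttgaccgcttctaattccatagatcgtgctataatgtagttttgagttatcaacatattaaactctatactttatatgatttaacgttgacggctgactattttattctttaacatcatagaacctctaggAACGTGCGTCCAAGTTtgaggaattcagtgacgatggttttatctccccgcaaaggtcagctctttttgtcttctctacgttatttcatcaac
EXPA7: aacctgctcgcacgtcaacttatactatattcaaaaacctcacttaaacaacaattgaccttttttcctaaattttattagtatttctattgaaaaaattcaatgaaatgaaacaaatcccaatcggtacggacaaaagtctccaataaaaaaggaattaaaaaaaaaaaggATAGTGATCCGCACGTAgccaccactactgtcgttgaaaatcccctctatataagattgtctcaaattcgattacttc

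The PSBQ2 window held 2 G-boxes and an I-box, 139, 71 and 9 bases before the start. The RBCS2B window held a G-box and 3 I-boxes within 140 bases of the start. In LRX1 and EXPA7 the root hair element lay 77 and 61 bases before it. Over the same window, the I-box was present in 12.4% of the 20406 tested genes with a window, in 17.8% of the 1744 at least 8-fold higher in the shoot and in 31.4% of the photosystem list (11 of 35). In the other chloroplast lists it was no more frequent than in all windows, at 12% for carbon fixation (3 of 25), the list of RBCS2B, and 7.14% for chlorophyll synthesis (1 of 14). The G-box was present in 7.29% of all windows, in 17.1% of the photosystem list (6 of 35), in 16% of the carbon fixation list (4 of 25) and in 14.3% of the chlorophyll list (2 of 14). The root hair element was present in 0.769% of all windows, in 2.79% of the 1361 genes at least 8-fold higher in the root, in 0.631% of those higher in the shoot and in 28.6% of the root hair list (6 of 21). The root hair element was searched for its known tie to root hair genes, so its share in their list is no independent support. Overlap between motifs was allowed, and a match is a description of the letters, not a bound site.

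PXY itself (AT5G61480, chromosome 5, 24724337 to 24728244) was measured at 18.2, 12.4 and 17 CPM in pxy roots 1, 3 and 4 and at 39.6, 41.7, 35.1 and 41.0 CPM in pxy shoots 1 to 4. Every shoot was above every root. The organ difference was −1.29 on the log2 scale (SE 0.15, adjusted p = 8.22e-06), from means of 15.9 ± 3.05 CPM (SD, n = 3) and 39.3 ± 2.95 CPM (SD, n = 4). The counts are per locus, so these values do not say whether the transcripts were complete. In WT the order was the other way round, with 19.1 ± 3.76 CPM in roots (SD, n = 4) and 9.98 ± 1.17 CPM in shoots (SD, n = 3), a log2 difference of 0.96 (SE 0.16). The test of that reversal is given with the WT comparison.

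The paralogous receptor kinases PXL1 and PXL2, which act beside PXY in vascular development, were higher in the root. PXL1 was at 39.7, 25.4 and 43.2 CPM in the roots and at 2.99, 6.44, 3.60 and 4.68 CPM in the shoots (log2 3.03, SE 0.25). PXL2 was at 27.1, 24.1 and 27.6 CPM in the roots and at 3.62, 4.83, 3.34 and 4.05 CPM in the shoots (log2 2.74, SE 0.16). The mutated gene and its paralogues therefore had opposite organ preferences in this line. Libraries did not overlap for any of the 3, as for 74.5% of all tested genes.

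All 3 ligand genes of the pathway list were higher in the shoot. CLE41 was at 4.92, 8.05 and 7.14 CPM in the roots and at 12.6, 14.1, 13.5 and 9.99 CPM in the shoots (log2 −0.89, SE 0.21, adjusted p = 0.00227). CLE44 was at 1.35, 2.51 and 1.70 CPM in the roots and at 4.25, 3.22, 4.27 and 6.32 CPM in the shoots (log2 −1.27, SE 0.32, adjusted p = 0.00318). CLE42 had the widest difference of the 3 ligand genes, with 0.578, 0.732 and 0.340 CPM in the roots against 7.09, 4.29, 5.87 and 4.17 CPM in the shoots (log2 −3.21, SE 0.36). No root library reached a shoot library for any ligand gene, as was the case for 74.5% of all tested genes.

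The homeobox targets WOX4 and WOX14 had opposite preferences. WOX4 was at 0.386, 0.836 and 0.906 CPM in the roots and at 6.78, 5.50, 4.41 and 5.82 CPM in the shoots (log2 −2.96, SE 0.33, adjusted p = 5.54e-06). WOX14 was at 2.99, 6.69 and 3.40 CPM in the roots and at 1.73, 2.15, 2.14 and 1.14 CPM in the shoots (log2 1.3, SE 0.35, adjusted p = 0.00542). The WOX14 difference was widest in root 3 and was 0.85 without that replicate.

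The kinase branch was higher in the shoot by smaller amounts. BIN2, BIL2 and BIL1, the GSK3-type kinases that phosphorylate BES1, had log2 differences of −0.61, −0.66 and −0.35. BES1, a brassinosteroid-response factor, was at 52.4, 60.3 and 63.7 CPM in the roots and at 185, 195, 199 and 181 CPM in the shoots (log2 −1.67, SE 0.11). Its paralogue BZR1 differed by −0.46 (SE 0.14, adjusted p = 0.0117), and that call was lost without pxy root 1 (adjusted p = 0.0601).

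The ERECTA family, receptor kinases that act with PXY in vascular organisation and in stomatal patterning, gave the widest differences of the pathway list. ER was at 6.17, 4.81 and 6.68 CPM in the roots and at 104, 116, 109 and 118 CPM in the shoots (log2 −4.22, SE 0.14). ERL2 differed by −5.88 (SE 0.36). ERL1 had 1 count over the 3 roots and 94 over the 4 shoots, a shoot over root ratio of 92.6, corrected for library size, with a 95% counting interval of 16.2 to 3696. The receptor-like kinases MOL1 and RUL1, which restrain and promote cambium activity, went the other way, at 1.39 (SE 0.17) and 2.11 (SE 0.18). RUL1 was at 34.8, 29.4 and 44.6 CPM in the roots and at 7.56, 7.51, 8.41 and 10.4 CPM in the shoots.

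Among the remaining transcription factors of the pathway list, KNAT1, a class I KNOX gene of meristems and cambium, differed by −2.81 (SE 0.21) and ANT, an AP2-type factor of organ growth and cambium, by −2.22 (SE 0.20). MP, the auxin response factor that starts vascular tissue, was higher in the root by 0.85 (SE 0.15), and the Dof factor TMO6 by 0.57 (SE 0.13). LBD4 (log2 −0.34, SE 0.24, adjusted p = 0.212) and the class III HD-ZIP gene HB8 (log2 0.37, SE 0.16, adjusted p = 0.0589) were not called. Without root 3 HB8 was called, at 0.56 with an adjusted p of 7.26e-05. In all, 7 of the 24 pathway genes were called for the root and 15 for the shoot, with a median of −0.64, beside 38.2%, 37.4% and a median of 0.02 over all tested genes.

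**Figure D2:**
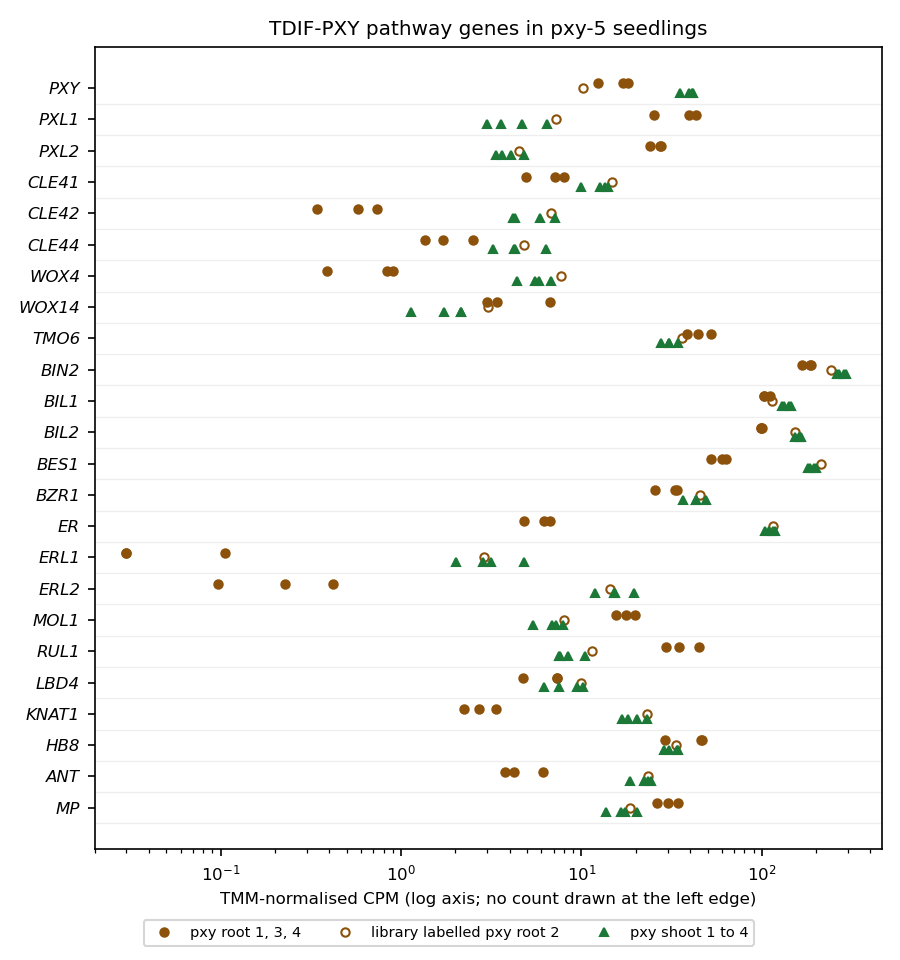
Level of the 24 TDIF-PXY pathway genes in each pxy library (TMM-normalised CPM, log axis): brown dots are roots 1, 3 and 4, open circles the library labelled pxy root 2, green triangles the 4 shoots. PXY, the 3 ligand genes, WOX4 and the ERECTA family lie higher in shoots (ER 104 to 118 CPM against 4.81 to 6.68), and PXL1, PXL2, WOX14, MOL1 and RUL1 lie higher in roots.

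Beyond the pathway, xylem and lignin genes were mostly higher in roots, while phloem genes were called for each organ. Over all tested genes, 38.2% were called for the root and 37.4% for the shoot, the shares to set beside each list below. Of 24 xylem and secondary wall genes tested, 19 were higher in the root, none was called for the shoot and 5 were not called. Their median log2 difference was 1.87. CESA7, a cellulose synthase subunit of the secondary wall, was at 66.1, 44.5 and 67.5 CPM in the roots and at 9.61, 11.1, 12.4 and 13.4 CPM in the shoots (log2 2.36, SE 0.17). The laccase LAC17, which polymerises lignin, differed by 2.87 (SE 0.14), from 57.6 ± 7.47 (SD, n = 3) to 7.96 ± 0.805 CPM (SD, n = 4). VND7, a NAC factor that switches on protoxylem vessel formation, differed by 2.14 (SE 0.30). The metaxylem factor VND6 was at 1.93, 2.4 and 1.36 CPM in the roots and at 2.99, 2.55, 2.80 and 3.16 CPM in the shoots and was not called (log2 −0.57, adjusted p = 0.0815). Without pxy root 3, 3 genes of this list were called for the shoot.

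Lignin enzymes followed, with 11 of 13 higher in the root, beside 38.2% of all tested genes, and a median of 1.27. PAL1, which starts the phenylpropanoid pathway, was at 324, 190 and 322 CPM in the roots and at 43.0, 54.2, 47.9 and 50 CPM in the shoots (log2 2.53, SE 0.18). Root 3 had the lowest PAL1 of the roots and was still above every shoot. F5H, which directs monomers to syringyl lignin, was the 1 enzyme called for the shoot (log2 −0.49, SE 0.20, adjusted p = 0.0396), and that call was lost without pxy shoot 1, 2 or 3.

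Of 19 tested phloem genes, 9 were called for the root and 6 for the shoot, with a median of 0.07, beside 38.2% and 37.4% of all tested genes. Among those higher in shoots were genes of companion cell transport: the sucrose carrier SUC2 differed by −1.52 (SE 0.18), the proton pump AHA3 by −1.67 (SE 0.18) and the sulfate transporter SULTR2;1 by −3.22 (SE 0.20), from 9.91 ± 3.62 to 93.7 ± 4.58 CPM. Among those higher in roots were genes of early phloem and sieve element formation: SMXL3 differed by 2.21 (SE 0.24), the sieve plate callose synthase CALS7 by 2.03 (SE 0.32), the receptor kinase BAM3 by 1.6 (SE 0.18) and OPS by 1.17 (SE 0.29). Other members with like roles went the other way: BRX, a regulator of early phloem, was higher in the shoot (log2 −0.93) and the sucrose exporter SWEET11 in the root (log2 0.87). SWEET12, its close relative, was at 57.2, 70.4 and 71.4 CPM in the roots and at 54.2, 70.7, 80.2 and 74.9 CPM in the shoots and was not called.

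In the vascular patterning list, 7 of 14 tested genes were called for the root and 2 for the shoot. The shares over all tested genes were 38.2% and 37.4%. The list's median was 0.66, and 0.45 without pxy root 3. SHR, the mobile factor that specifies the endodermis, was higher in the root by 1.59 (SE 0.21), and its partner SCR by 1.38 (SE 0.13). AHP6, an inhibitor of cytokinin signalling that marks protoxylem, differed by 2.21 (SE 0.49). The class III HD-ZIP genes, which pattern xylem and the upper leaf side, did not share a direction. REV was at 64.4, 39.2 and 59.4 CPM in the roots and at 15.6, 24.1, 22.0 and 19.1 CPM in the shoots (log2 1.44, SE 0.19). PHV was at 37.3, 20.8 and 36.2 CPM in the roots and at 79.9, 71.5, 70.2 and 68.3 CPM in the shoots (log2 −1.18, SE 0.18). PHB and CNA overlapped between the organs and were not called.

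All 21 root hair genes were called for the root, with a median of 4.91. RSL1, a basic helix-loop-helix factor of root hair identity, was at 4.82, 5.02 and 6.00 CPM in the roots and had no count in any shoot, at least 51.1-fold higher when 3 counts, summed over the 4 shoots, are taken as the limit of detection. LRX1, whose promoter is printed above, was at 139, 86.5 and 134 CPM in the roots and at 0.946, 1.07, 1.20 and 0.759 CPM in the shoots (log2 6.91, SE 0.24). EXPA7 was at 88.4, 52.6 and 79.6 CPM in the roots and at 0.473, 1.48, 0.668 and 1.39 CPM in the shoots (log2 6.17, SE 0.28). The smallest difference of the list belonged to CSLD3, a cellulose synthase-like enzyme of hair growth, at 1.68 (SE 0.21).

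Epidermal fate genes act in both root hairs and leaf trichomes. They were called for the root in 9 of 12 cases and for the shoot in 3, beside 38.2% and 37.4% of all tested genes. GL1, the MYB factor of trichomes, had no count in the roots and 49 in the shoots, at least 16.1-fold higher in the shoot. WER, the related MYB factor of root epidermis, differed by 2.31 (SE 0.15) toward the root. GL3, a basic helix-loop-helix partner of both, was at 12.8, 8.78 and 13.6 CPM in the roots and at 0.473, 0.402, 0.267 and 0.506 CPM in the shoots (log2 4.80, SE 0.31). The WD40 partner TTG1 differed by −0.34 (adjusted p = 0.0198), a call lost without pxy shoot 3.

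All 10 tested Casparian strip genes were higher in the root, with a median of 3.5. CASP1, a membrane scaffold protein of the strip, was at 157, 162 and 179 CPM in the roots and at 5.67, 11.8, 13.4 and 11.3 CPM in the shoots (log2 3.99, SE 0.20). Its peroxidase partner PER64 differed by 4.34 (SE 0.15). Of 13 suberin genes, 11 were higher in the root, beside 38.2% of all tested genes. ABCG6, a suberin exporter, differed by 3.87 (SE 0.20) and the acyltransferase GPAT5 by 3.02 (SE 0.19). FAR1, a fatty acyl reductase, was the exception in the other direction, at 12.4, 18.5 and 12 CPM in the roots and 188, 217, 258 and 222 CPM in the shoots (log2 −3.93, SE 0.18). The related reductases FAR4 and FAR5 differed by 2.51 and 2.77 toward the root.

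Of 17 tested genes of the root meristem, cap and lateral roots, 16 were higher in the root, with a median of 3.88. PLT1, a master regulator of the root stem cell niche, was at 16.5 ± 1.19 CPM in the roots (SD, n = 3) and at 0.203 ± 0.0674 CPM in the shoots (SD, n = 4), a log2 difference of 6.25 (SE 0.27). The root cap NAC factors SMB, BRN1 and BRN2 differed by 6.06, 6.5 and 6.82. WOX5, which marks the quiescent centre, differed by 2.75 (SE 0.30). The receptor kinase ACR4 was called for the shoot (log2 −0.86, SE 0.21), where it also serves the leaf epidermis. CLE40 was listed at 0 in all 7 libraries.

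Nutrient uptake and loading genes were higher in the root in 21 of 22 tested cases, with a median of 2.52. The iron transporter IRT1 was at 62.9, 41.8 and 66.2 CPM in the roots and at 0.946, 2.95, 1.20 and 3.92 CPM in the shoots (log2 4.64, SE 0.32). The sulfate transporter SULTR1;1 differed by 5.47 (SE 0.40), the outward potassium channel SKOR, which loads the xylem, by 4.52 (SE 0.18), and the citrate exporter FRD3 by 4.38 (SE 0.19). HMA2, a zinc pump, was at 1.46 to 3.37 CPM in the roots and 2.00 to 2.91 CPM in the shoots and was the 1 tested member not called. NRT2.4 and AMT1;5 were listed at 0 in all 7 libraries.

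On the shoot side, every member of the 3 chloroplast lists was called. For the 35 photosystem and antenna genes the median was −6.64, for 25 genes of carbon fixation and photorespiration −7.13, and for 14 genes of chlorophyll synthesis and its regulators −5.75. PSBQ2, whose promoter is printed above, was at 12, 14.9 and 10.6 CPM in the roots and at 1110, 944, 967 and 843 CPM in the shoots (log2 −6.25, SE 0.19). RBCS2B, also printed, was at 4.15, 8.26 and 4.76 CPM in the roots and at 1100, 854, 876 and 732 CPM in the shoots (log2 −7.26, SE 0.27). Its reads can be shared with the near-identical RBCS copies, so that value is uncertain for the single gene. The widest difference of the carbon fixation list was that of PGLP1 (log2 −9.95, SE 0.36), which also has a near-identical copy. It was followed by the aldolase FBA1, at 0.289, 0.836 and 0.566 CPM against 307, 274, 279 and 246 CPM (log2 −8.90, SE 0.22), and by SBPASE (log2 −8.35, SE 0.27). At the other end CAT2, a peroxisomal catalase, differed by −0.56 (SE 0.11) and the transketolase TKL1 by −1.02 (SE 0.11).

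GLK1, which switches on nuclear photosynthesis genes, was at 1.06, 0.418 and 1.02 CPM in the roots and at 126, 106, 104 and 102 CPM in the shoots (log2 −6.99, SE 0.22). Its paralogue GLK2, which greens roots as well, was at 9.83, 11.1 and 9.86 CPM in the roots and at 77.8, 86.5, 78.1 and 98.3 CPM in the shoots (log2 −3.03, SE 0.13). The plastid genome itself differed less than the nuclear lists: of its 110 tested genes 108 were called for the shoot and none for the root, with a median of −2.4. Of 19 tested genes of the mitochondrial genome, 13 were called for the root and 2 for the shoot, with a median of 1.41. Over all tested genes these shares were 38.2% and 37.4%. The mitochondrial share was 0.0717% of counts in root 3 and 0.195% and 0.139% in roots 1 and 4.

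All 11 tested stomatal genes were higher in the shoot. STOMAGEN, a mesophyll peptide that raises stomatal number, had 1 count over the 3 roots and 1820 over the 4 shoots, a ratio of 1793 with a 95% counting interval of 321.4 to 70860. FAMA, the factor that completes guard cells, had 2 counts against 972. EPF1 and EPF2, peptides that lower stomatal number, had no count in the roots and were at least 31.2-fold and at least 22-fold higher in the shoot. SCRM, a factor that also acts in the cold response, had the smallest difference, at −1.58 (SE 0.14). Without pxy root 3 the median was −7.08. Taking genes without a root count at their bound, the list's median was −4.96 instead of −6.18.

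The shoot meristem and leaf polarity list was called for the shoot in 12 of 17 tested genes and for the root in 4. Over all tested genes these shares were 37.4% and 38.2%. The YABBY genes, which specify the lower leaf side, were almost unread in roots: YAB5 was at 53.7, 47.3, 52.2 and 46.4 CPM in the shoots with no root count, at least 476.8-fold higher, and YAB3 had 2 root counts against 1789. STM, which maintains the shoot meristem, had 1 root count against 124. The KANADI gene KAN2, which also patterns the lower leaf side, and AN3, a co-activator of leaf cell division, went the other way, at 0.82 (SE 0.22) and 1.02 (SE 0.10). WUS was listed at 0 in all 7 libraries.

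Cuticle genes were higher in the shoot in 8 of 11 tested cases, beside 37.4% of all tested genes, with a median of −3.54. CER6, a condensing enzyme of wax chain elongation, was at 1.25, 2.09 and 1.81 CPM in the roots and at 428, 396, 420 and 408 CPM in the shoots (log2 −7.89, SE 0.17). ATML1, a homeobox factor of shoot epidermis, had 0.289, 0.209 and 0 CPM in the roots against 96.9 to 121 CPM in the shoots. CER4, a reductase that makes primary alcohols, was called for the root, at 53.6, 50.8 and 43.3 CPM against 1.1, 0.805, 2.00 and 1.52 CPM (log2 5.18, SE 0.22), and so was LACS2 (log2 1.15, SE 0.12).

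**Figure D3:**
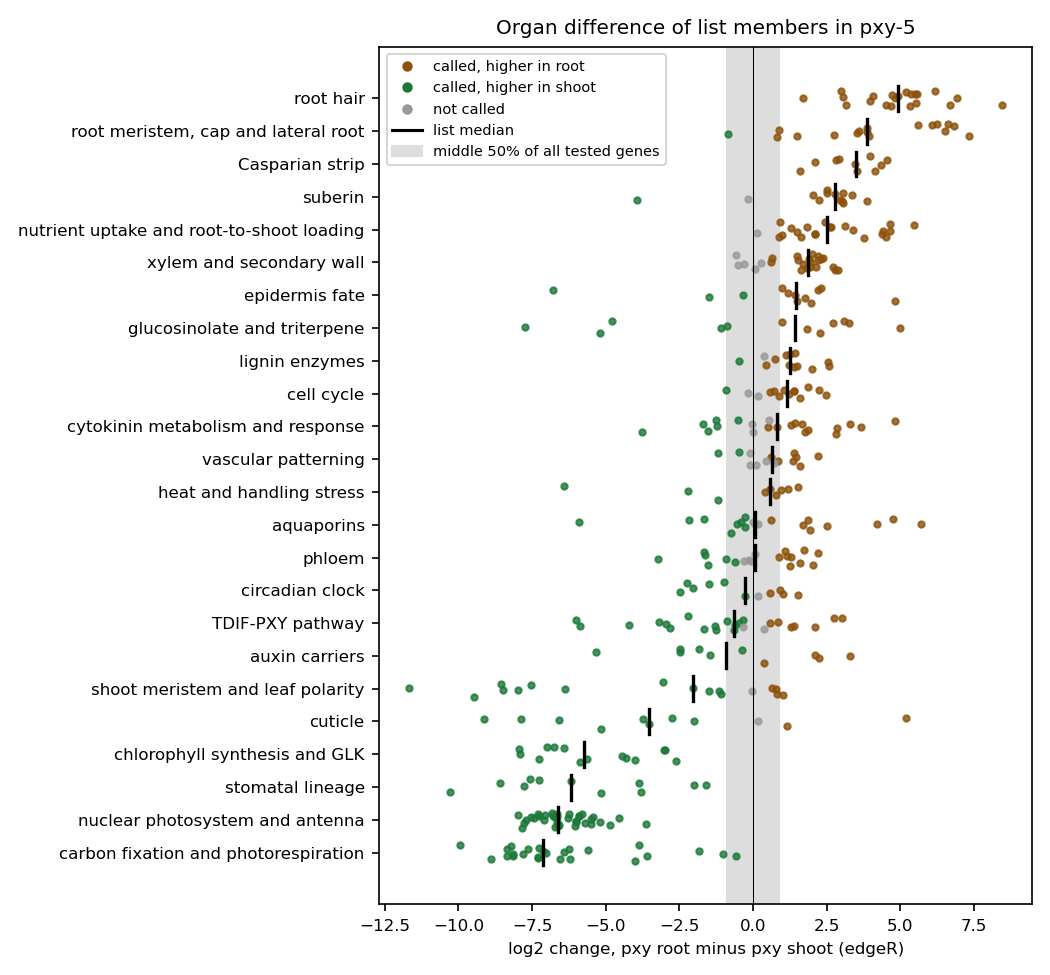
Log2 difference between pxy root and pxy shoot (positive is higher in root) for each tested member of 24 gene lists; colour gives the call at an adjusted p under 0.05, the black bar the list's median and the grey band the middle 50% of all tested genes. Root hair, Casparian strip and nutrient uptake genes lie to the root side (medians 4.91, 3.5 and 2.52), the 3 chloroplast lists and stomatal genes to the shoot side, and phloem, aquaporin and clock genes lie on both sides.

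The aquaporin, auxin carrier and cytokinin lists held members called for each organ, in shares that can be set beside the 38.2% (root) and 37.4% (shoot) of all tested genes. Of 19 aquaporins, 8 were called for the root and 8 for the shoot, with a median of 0.07, which is near those shares. PIP2;6 was at 8.48, 8.68 and 11.4 CPM in the roots and at 608, 554, 575 and 563 CPM in the shoots (log2 −5.90, SE 0.15). TIP2;3, a water channel of the vacuole, was at 285, 321 and 302 CPM in the roots and at 10.1, 12.6, 10.3 and 12.6 CPM in the shoots (log2 4.74, SE 0.12). TIP4;1 differed by 5.70 and PIP2;4 by 4.22 toward the root. Among the most abundant members, PIP1;2 was at 558 to 599 CPM in the roots and 573 to 632 CPM in the shoots and was not called. The count called for the shoot was 5 without pxy root 1.

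Auxin carriers were called for the root in 4 of 10 tested cases, near the share of all genes, and for the shoot in 6. PIN2, the efflux carrier of root gravitropism, was at 94.0, 77.0 and 108 CPM in the roots and at 7.88, 10.1, 10.3 and 9.74 CPM in the shoots (log2 3.30, SE 0.15). PIN3, a carrier of tropic responses in both organs, was at 34.2, 22.1 and 34.9 CPM in the roots and at 175, 157, 178 and 172 CPM in the shoots (log2 −2.47, SE 0.16). Of the influx carriers, LAX3 differed by 2.1 and LAX1 by −2.47.

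Cytokinin genes were called for the root in 12 of 21 tested cases and for the shoot in 6, with a median of 0.80. The biosynthetic enzyme IPT5 was higher in the root by 2.86 (SE 0.25), and its relative IPT3 higher in the shoot (log2 −1.54, SE 0.24). ABCG14, which exports cytokinin from root to shoot, differed by 2.83 (SE 0.18). Type-A response regulators, which are induced by cytokinin, did not move as a block. ARR3 was at 52.1, 53.6 and 48.0 CPM in the roots and at 0.946, 2.15, 1.6 and 2.53 CPM in the shoots (log2 4.81, SE 0.20). ARR7 was at 8.87, 22.6 and 8.95 CPM in the roots and at 47.0, 68.0, 34.3 and 28.1 CPM in the shoots (log2 −1.70, SE 0.37). ARR15 and ARR16 were not called.

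**Figure D4:**
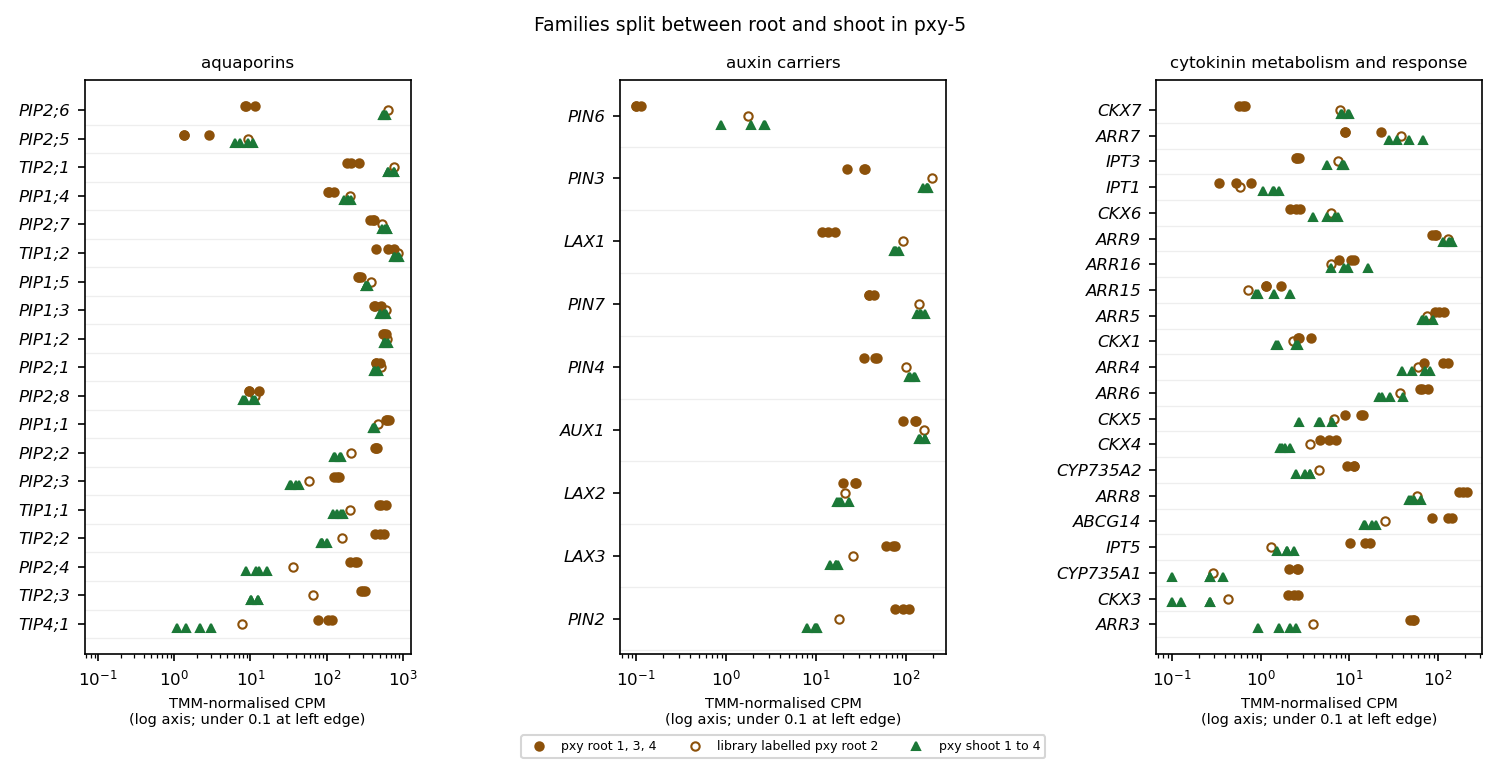
Level of aquaporins, auxin carriers (1 tested member not drawn) and cytokinin genes in each pxy library (TMM-normalised CPM, log axis, values under 0.1 drawn at the left edge), ordered from shoot-higher to root-higher; symbols as in the plot of TDIF-PXY genes. Each family holds members high in one organ and members high in the other, such as PIP2;6 (554 to 608 CPM in shoots, 8.48 to 11.4 in roots) and TIP2;3 (285 to 321 CPM in roots, 10.1 to 12.6 in shoots).

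Cell cycle genes were mostly higher in the root, 11 of 14 beside 38.2% of all tested genes, with a median of 1.14. The mitotic cyclin CYCB1;1 was at 18.8, 18.4 and 22.0 CPM in the roots and at 5.83, 4.96, 5.21 and 5.95 CPM in the shoots (log2 1.86, SE 0.16). CDKB1;1, a kinase of the G2 to M step, differed by 2.23 (SE 0.14) and the replication licensing gene MCM2 by 1.39 (SE 0.15). CYCD3;1, a cyclin of cell cycle entry that acts in the cambium, was at 19.6, 20.7 and 22.8 CPM in the roots and at 22.1, 23.9, 25.6 and 24.8 CPM in the shoots and was not called (adjusted p = 0.209). CYCD6;1 was called for the shoot (log2 −0.92, adjusted p = 0.0414), a call lost without pxy root 1, pxy root 4, pxy shoot 2 or pxy shoot 3, and with DESeq2 (adjusted p = 0.0734).

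Of 12 tested genes of glucosinolate and triterpene synthesis, 7 were called for the root and 5 for the shoot. The shares over all tested genes were 38.2% and 37.4%. The triterpene genes MRN1 and THAS1, whose products are made in roots, differed by 4.98 (SE 0.20) and 3.27 (SE 0.24), with MRN1 at 324, 312 and 333 CPM in the roots and 5.52, 13.4, 10.7 and 11.6 CPM in the shoots. The indole glucosinolate enzymes CYP79B2 and CYP83B1 were higher in the root by 2.29 and 1.83. The aliphatic glucosinolate enzymes MAM1 and CYP83A1 were higher in the shoot (log2 −5.18 and −4.77), and their regulator MYB29 had no root count and was at least 30.5-fold higher in the shoot. The median of the list was 1.41, and 0.76 without pxy root 4.

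The clock list held 4 genes called for the root and 6 for the shoot of 11, beside 38.2% and 37.4% of all tested genes. The morning factor CCA1 was at 5.13 ± 1.04 CPM in the roots (SD, n = 3) and at 24.7 ± 6.95 CPM in the shoots (SD, n = 4), a log2 difference of −2.24 (SE 0.24). LHY, its close relative, went the other way (log2 1.02, SE 0.25). PRR9 and PRR7 were higher in the shoot, at −2.48 and −2.04, and ELF4 was higher in the root, at 1.51. Whether roots and shoots were taken at the same hour is not given in the labels. Of 9 tested heat and handling genes, 6 were called for the root and 3 for the shoot, beside the same shares of all tested genes. The touch-induced wall enzyme TCH4 was at 2.70, 5.75 and 2.04 CPM in the roots and at 331, 289, 332 and 271 CPM in the shoots (log2 −6.42, SE 0.27), and the stress factor ZAT12 differed by 1.51 (SE 0.20).

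Ranked by the fitted log2 difference, which for genes without a count in 1 organ depends on the prior count, the 10 leading genes toward the root had no shoot count or a single one. Most had bounds of at least 38.9-fold to at least 55.8-fold. Such bounds do not place a gene above those with counts in both organs, such as LRX1 (log2 6.91). SCPL15, a serine carboxypeptidase-like protein (AT3G12240, chromosome 3, 3902254 to 3904992), was at 14.6, 18.4 and 17.9 CPM in the roots, 485 counts in all, and was at least 164.1-fold higher. The pectin lyase-like gene AT2G43890, the methyltransferase gene AT3G44870, RSL1, the GOLVEN peptide gene AT5G15725, AT2G31920, the GDSL lipase gene AT2G30220 and the helix-loop-helix gene BNQ3 were at least 38.9-fold to at least 55.8-fold higher. AT3G11385 and the glutathione transferase gene ATGSTF13 had a single shoot count each, in shoot 4, against 438 and 371 root counts. AT5G15725 and AT3G44870 varied most in the roots, with 2.99, 9.41 and 2.83 CPM and with 5.88, 1.88 and 9.29 CPM.

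Toward the shoot, the 10 leading genes by the same fitted ranking had no root count. Their bounds lie below the ratios of some genes with 1 or 2 root counts, such as STOMAGEN (1793) and PGLP1 (1211). DCF (AT3G48720), an acyltransferase of the leaf cutin, was at 83.8, 72.3, 81.4 and 76.7 CPM in the shoots and at least 751.1-fold higher. The receptor-like kinase gene CRK21, AT1G67865 and the jasmonate enzyme gene LOX2 were at least 678.8-fold, at least 681.4-fold and at least 564.5-fold higher. YAB5, the helix-loop-helix gene PRE1, AT3G20395, SAUR24, the B-box gene BBX16 and AT1G80130 were at least 281.4-fold to at least 476.8-fold higher. In the library labelled pxy root 2, all 10 were read, at 29.6 CPM (SAUR24) to 85 CPM (AT1G67865), while SCPL15 stood at 1.31 CPM there.

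A smaller part of the transcriptome was alike in both organs. For 3330 tested genes (16.2%) the 95% interval of the organ difference lay within 1.5-fold in either direction. Among the lists it held for 4 aquaporins, PIP1;2 with a log2 difference of −0.02 among them, for 3 vascular patterning genes and for 1 gene of the TDIF-PXY list. The 5013 genes not called are a wider set, since a p that misses the threshold does not show equal levels.

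The same organ difference in WT was set beside that of the mutant, with 4 WT roots and 3 WT shoots (WT shoot 2 was left out for its 167131 counts). The comparison asks where the organ difference depends on the receptor mutant line. Across 20470 genes tested in both, the organ differences had r = 0.981, a description across genes, which are not independent replicates. Of 15471 genes called in pxy and tested in WT, 15408 had the same sign there. The test of the difference itself called 4 of 21147 genes (0.0189%) in edgeR, 3 with a positive (0.0142%) and 1 with a negative contrast (0.00473%), and 1358 genes had an unadjusted p under 0.05.

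PXY was the first of the 4, with a difference between the organ differences of −2.25 (SE 0.23, adjusted p = 0.000355). It kept its call in each of the 14 fits that left out a library, at −2.38 to −2.12, and was not called when tested against a 2-fold threshold with glmTreat (adjusted p = 0.0642). The levels behind it are those given above: pxy shoots were above WT shoots in every library, while the pxy roots at 12.4 to 18.2 CPM overlapped the WT roots at 14.4 to 23.1 CPM.

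The other 3 were WRKY33, a regulator of camalexin and defence, NHL3, a membrane protein induced in defence, and AT3G04640. WRKY33 was at 51.7 and 39.8 CPM in pxy roots and shoots and at 54.7 and 91.9 CPM in WT roots and shoots (contrast 1.13, SE 0.18, adjusted p = 0.041). NHL3 was at 40.5 and 73.4 CPM in pxy and at 37.3 and 116.6 CPM in WT (contrast 0.79, SE 0.12, adjusted p = 0.041). AT3G04640 was at 13.8 and 26.8 CPM in pxy and at 13.1 and 67.3 CPM in WT (contrast 1.41, SE 0.23, adjusted p = 0.042). In each of the 3 the pxy and WT roots overlapped and the pxy shoots lay below all 3 WT shoots. These calls were not firm: they held in 4, 3 and 3 of the 14 fits that left out a library and were lost in the rest, with adjusted p-values up to 0.216.

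No list other than TDIF-PXY and the heat and handling list held a called member. The photosystem list had a median contrast of −0.87 with 0 of 35 called, and the carbon fixation list −1.14 with 0 of 25 called. WT roots had 0.0767% to 0.184% of their counts in the photosystem list, beside 0.0604% to 0.0931% in pxy roots, and the part of shoot tissue in the root samples was not tested. Beside PXY, 13 genes called at 2-fold or more in pxy had the other sign in WT, among them ZAT12, WRKY70, ERF5, PBP1 and ARR6. In WT most of the 13 had differences near 0 for their SE: ZAT12 −0.389 (SE 0.465), WRKY70 −0.414 (SE 0.379) and ERF5 −0.051 (SE 0.103). PBP1 was at −0.386 (SE 0.246) and ARR6 at −0.079 (SE 0.259). The widest was AT5G52750, at −0.697 (SE 0.187). These genes were chosen after their values were seen, and none had a called contrast. ARR6, a type-A response regulator, was at 67.9 ± 7.74 and 28.5 ± 8.34 CPM in pxy roots and shoots and at 56.0 ± 1.68 and 58.3 ± 22.8 CPM in WT (SD, n = 3, 4, 4 and 3; contrast 1.33, adjusted p = 0.247).

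**Figure D5:**
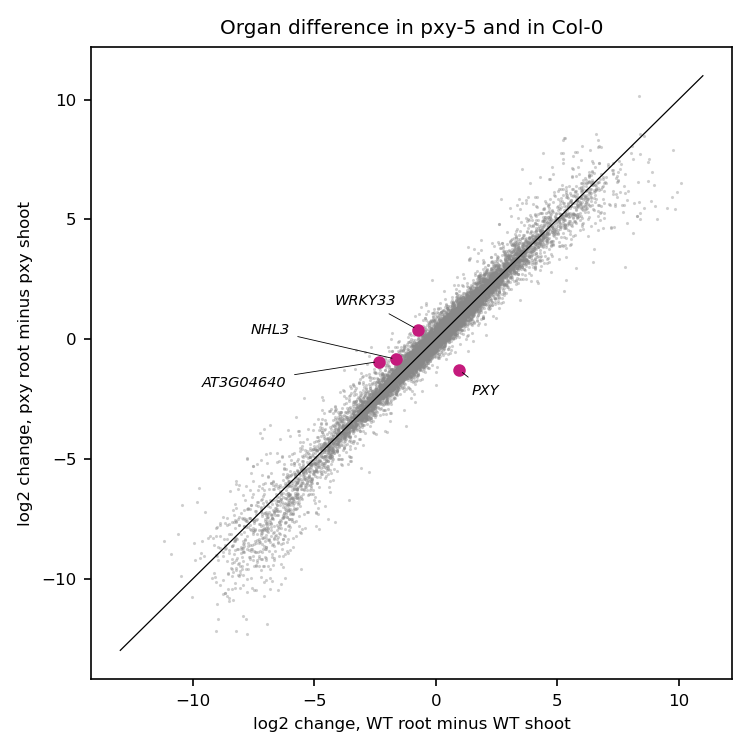
Log2 organ difference (root minus shoot) of each gene tested in both genotypes, WT on the horizontal and pxy on the vertical axis, with the line of equal differences and the 4 genes whose contrast was called in colour. Most points follow the line; PXY lies below it, at 0.96 in WT and −1.29 in pxy, and WRKY33, NHL3 and AT3G04640 lie above it.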

How the data were processed

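Total RNA of 7-day-old roots and shoots was sequenced by the authors, with 4 biological replicates a group and 2 technical replicates of each, whose pooling is not stated. Per the submitters' processing notes, CASAVA, TopHat2, HTSeq and the TAIR10 build were used, and the deposited values are whole-number counts per locus for 33602 loci; versions, strand setting and overlap mode are not given in the sources used here, so antisense and overlapping genes are uncertain. HTSeq lines that name no gene (no feature, 2.11% to 3.13%; ambiguous, 1.92% to 2.61%) were left out of library sizes.

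Genes with low counts were removed by group with filterByExpr, library sizes were scaled by TMM, and the counts were fitted in edgeR (version 4.0.16, under R version 4.3.3) with the robust quasi-likelihood F-test and Benjamini-Hochberg adjustment over all genes tested, at a threshold of 0.05; every adjusted p in the text without another name comes from it. The organ fit held 7 pxy libraries and the contrast with WT 14. The library labelled pxy root 2 and WT shoot 2 were left out of both fits. The printed CPM values were scaled with TMM factors computed over all 24 libraries, including these. Replicates are separate samples by their labels, and each p-value sets a difference against the spread between them. Genes without a count in a group are given as a bound from 3 counts, and ratios of low counts carry 95% intervals that cover counting error only. The scripts were tested on simulated data. Alternatives used DESeq2 1.42.0 and other settings. Summaries used Python 3.11.15 with pandas 2.3.3, and promoters were read from the RefSeq TAIR10.1 genome.

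The members and lists were chosen with earlier results of these data known. Named genes were the TDIF-PXY list, the 10 called genes of widest difference in each direction, in each list up to 5 called members of widest difference and up to 2 against its majority (outside the TDIF-PXY list, each at 1 or more in mean log2 CPM), and the called contrasts. Other list members are examples chosen after their values were seen. For 1 auxin carrier, counted in its list, the values are not reported here.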

Additional observations from a re-analysis of the deposited data

Results flagged for a closer look

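In 197 sets of 4 pxy shoot values examined for a sample far from the others, chance marks about 1 in 20 sets, and 9 were marked. In shoot 4, AT3G11385 and ATGSTF13 stood at 0.126 CPM each with 0 in the other shoots, which is a single count. The phloem regulator APL stood at 33 CPM in shoot 4 against 28.3 to 28.7 CPM, the lignin enzyme gene CAD4 at 63.4 against 73.2 to 74 CPM and the epidermal gene GL2 at 4.93 against 5.5 to 5.61 CPM. In shoot 1, ABCG6 stood at 4.73 CPM against 8.31 to 8.73 CPM, MAM1 at 63 against 31.5 to 33.4 CPM, CML38 at 15.4 against 19.8 to 20.5 CPM, and the nutrient uptake list at 0.037% of counts against 0.0449% to 0.0458%.

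The organ difference departed from that of WT, by the test of the contrast itself, for PXY (−2.25), AT3G04640 (1.41), WRKY33 (1.13) and NHL3 (0.79) on the log2 scale. The library labelled pxy root 2, which no comparison uses, had 4.18% of its counts in the photosystem list, where the pxy roots had at most 0.0931%.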

How the results depend on the processing

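With the library labelled pxy root 2 included as labelled, 5767 genes were called in place of 15540, 4358 for the root and 1409 for the shoot, 3612 of them at 2-fold or more; 75.6% of calls were then for the root, against 50.5%. The photosystem list then had 0 genes called for the shoot and a median of −1.96, and AT3G04640 changed sign, to 0.24 (adjusted p = 0.757). Tested against a 2-fold threshold with glmTreat, 7634 genes were called, 3676 for the root and 3958 for the shoot. Other normalisation, no filter, DESeq2, all groups in 1 fit and leaving out 1 library kept the count within 1.5 times, at 14667 to 16731 without 1 library. The contrast with WT was less stable: 4 calls became 1 with pxy root 2 included, 49 with DESeq2, 0 with glmTreat, 2 with all groups in 1 fit, and 1 to 25 when 1 library was left out, with 25 without pxy root 3. The cause was not tested. Same-numbered pxy roots and shoots had deviations correlated at −0.12, −0.096 and 0.024, so the numbers do not pair the samples; with the number as a replicate block 14075 genes were called between organs and 0 in the contrast, with PXY at an adjusted p of 0.0517; the organ calls of TTG1 (adjusted p = 0.0845) and CYCD6;1 (0.0909) were not made with it. Of the lists' values, without pxy root 3 the xylem list had 3 genes called for the shoot in place of 0, and the medians of vascular patterning and of the stomatal list were 0.45 and −7.08 in place of 0.66 and −6.18. The aquaporin list had 5 called for the shoot without pxy root 1 or with the block, in place of 8. At this depth, genes with a handful of counts are known only as bounds.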

Other observations

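A further 12 gene families were chosen after the data were seen. They were matched by annotated product name, so their members can include genes of the lists. Some families were called mostly for 1 organ and some were not. Of all tested genes, 38.2% were called for the root and 37.4% for the shoot. Of 53 class III peroxidases tested, enzymes that act in the cell wall, 41 (77.4%) were called for the root and 7 (13.2%) for the shoot, with a median log2 difference of 2.36. Of 13 proline-rich extensin-like wall proteins, 11 were called for the root, with a median of 5.1. Of 63 small auxin up RNA (SAUR) proteins, 39 were called for the shoot and 20 for the root, with a median of −5.22, although near-identical copies make single members uncertain. Cysteine-rich receptor-like kinases leaned the same way, 16 of 26 with a median of −2.08. Basic helix-loop-helix factors (38.1% root, 34% shoot, median 0.1) and xyloglucan endotransglucosylases (44% root, 48% shoot, median −0.18) were called for each organ in like shares. Pentatricopeptide repeat proteins, which process organelle RNA, had 112 of 239 members not called and a median of 0.03.

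Some genes with wide differences were neighbours on a chromosome. Runs of at least 4 neighbouring tested genes that were 8-fold or more higher in the same organ numbered 9 for the root, with 40 genes, and 15 for the shoot, with 65 genes. A run of 6 genes on chromosome 3 (4867144 to 4887487) from AT3G14510 to GGPS3, all but the uncharacterized AT3G14517 annotated to terpenoid or prenyl enzyme families, was higher in the root by 3.34 to 7.64 on the log2 scale. The root run on chromosome 4 (8751320 to 8794442) held CYP705A1, PEN1, CYP705A2, CYP705A4 and AT4G15390. Toward the shoot, SAUR genes from AT1G29420 to AT1G29460 lay together on chromosome 1 (10301377 to 10308246), with differences of −9.32 to −3.69, and CRK13 to CRK18 on chromosome 4 (12148673 to 12170080), with −8.7 to −5.54. Neighbouring family members can share reads, so their values are not independent.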
